A study of Mus musculus with 20 samples.

Results

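The genes described here encode 36 components of the lysosome and of autophagy. They were chosen by name, with earlier results of these data known, and all are among the 43472 genes of the deposited count table. They comprise 8 lysosomal proteases, 7 glycosidases, 4 lipid enzymes or their helpers, 3 membrane proteins, 2 subunits of the proton pump, 2 transcription factors and 10 autophagy genes. Each was followed in bulk RNA sequencing of ventral prostate from 4 groups of male mice, 5 libraries a group. The groups were ARNoC/Y mice with testosterone, ARNoC/Y mice with vehicle, wild type (WT) C57BL/6J mice with testosterone and WT mice with vehicle. All animals had been orchidectomised, which removes the testicular source of androgen, and testosterone or vehicle was then given for 4 days. ARNoC mice carry an androgen receptor in which the interaction between the amino-terminal and carboxyl-terminal regions is lost, and the design asks how far the response of the prostate to androgen needs that interaction. No label gives the age of the mice. C57BL/6J is an inbred strain, and whether it is also the background of the ARNoC mice is not given.

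Lysosomes are acidic compartments in which proteases, glycosidases and lipases break down proteins, sugar chains and lipids that arrive by endocytosis or autophagy. A proton pump in their membrane keeps them acidic, and TFEB and TFE3 are transcription factors that switch on many lysosomal and autophagy genes through the motif GTCACGTG and its variants. In autophagy, a membrane closes around cytoplasm and fuses with the lysosome; small proteins of the Atg8 family are attached to that membrane and bind cargo receptors such as p62. The prostate shrinks after castration and regrows with androgen, and both its secretory epithelium and its resident macrophages contain lysosomes.

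Libraries held 8861646 to 21600352 counts. The 10 most abundant genes of a library took 18.4% to 20.8% of its counts in ARNoC with testosterone, 6.81% to 10.4% in ARNoC with vehicle, 21.4% to 28.1% in WT with testosterone and 7.99% to 9.56% in WT with vehicle. The 36 genes together took 0.769% ± 0.034, 0.935% ± 0.045, 0.659% ± 0.027 and 0.920% ± 0.063 of counts in the same 4 groups (SD, n = 5 each). Values below are the authors' normalized counts, which correct each raw count for the depth of its library through a size factor. Luminal epithelial markers such as Krt8 and Epcam, summed over 6 genes, reached 46128 to 58315 normalized counts in ARNoC with testosterone, 43417 to 52868 in ARNoC with vehicle, 42769 to 51350.4 in WT with testosterone and 40129 to 47857 in WT with vehicle, while 7 seminal vesicle markers summed to at most 50.7 in any library. These luminal markers did not move together: with testosterone 2 rose and 4 fell in ARNoC, and 2 rose and 3 fell in WT (edgeR adjusted p below 0.05). Over all genes 36.2% were called in ARNoC and 39.2% in WT. Their sum therefore does not show that luminal content was unchanged. The mutation itself cannot be read from counts per gene, so the genotype labels were not checked. Separate animals are not stated for the 5 libraries of a group, so the spread behind each p-value may be technical.

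Stretches before the start site are shown for genes that were called in the same direction in both genotypes and whose RefSeq promoter window holds GTCACGTG or TCACGTGA, the letters that TFEB and TFE3 are known to bind. Capitals mark each CACGTG and the letters beside it that complete such a motif on either strand. The windows are those of RefSeq on build GRCm38.p6, the assembly also called mm10. The stretches lie at chr2:164833743-164833772 (plus strand), chrX:134601214-134601243 (minus strand), chr9:114400998-114401075 (plus strand), chr8:13159081-13159160 (plus strand) and chr12:102439093-102439172 (minus strand), and each is written 5′ to 3′ on the strand of its gene. Those of Ctsa and Gla lie within an annotated exon and were kept to 30 bases.
Ctsa: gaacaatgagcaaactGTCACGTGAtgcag
Gla: aagcgattgaTCACGTGAgcatctacgtca
Glb1: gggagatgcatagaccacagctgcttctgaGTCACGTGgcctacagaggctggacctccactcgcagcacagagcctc
Lamp1: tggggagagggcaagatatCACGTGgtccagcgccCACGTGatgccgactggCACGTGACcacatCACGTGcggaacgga
Lgmn: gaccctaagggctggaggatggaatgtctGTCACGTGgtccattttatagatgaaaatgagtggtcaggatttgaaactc
Glb1, which rose most of the 36 genes in both genotypes, and Lgmn, which fell most in WT, thus both hold GTCACGTG, at positions -50 and -51 from a RefSeq start. For Lgmn and Ctsa that start lies inside the gene as annotated for exon lengths. The annotated 5′ ends are at chr12:102439813 for Lgmn and chr2:164832873 for Ctsa, so these 2 stretches lie downstream of them. Lamp1 holds 4 copies of CACGTG in 80 bases. The match of Atp6v0d1, at position -5, crosses its start site, and that stretch is not printed.

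Of the 36 genes, 30 had a promoter window in RefSeq, with 36 windows of 300 bases in all. On either strand, CACGTG was found in 12 of these windows (33.3%), against 7.15% of all 32851 windows of the same length. GTCACGTG, which contains CACGTG, was found in 9 windows (25%) against 2.25%, and TCACGTGA, which also contains it, in 5 windows (13.9%) against 0.974%. The GC-rich motif GGGCGG was in 24 windows (66.7%) against 35.7%. The palindromic androgen response element, AGAACA and TGTTCT with NNN between them, was in none of these windows and in 0.00913% of all windows. The 9 genes with GTCACGTG were Atg7, Atp6v0d1, Ctsa, Ctsd, Gla, Glb1, Lamp1, Lgmn and Mcoln1. Of these 9 genes, Atp6v0d1, Gla, Glb1 and Lamp1 rose with testosterone in both genotypes (with total-count scaling Lamp1 was below 0 in both and Atp6v0d1 in WT), Ctsa and Lgmn fell in both, Mcoln1 fell in ARNoC, and Atg7 and Ctsd were called in neither. A match is a run of letters and does not show binding.

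Testosterone changed most of these genes in both genotypes, in both directions and mostly by less than 1.5-fold. In both, 5 glycosidases, 2 proton pump subunits, Lamp1, Becn1 and Atg5 rose, although with total-count scaling Neu1, Lamp1 and Atp6v1h were below 0 in both genotypes and Atp6v0d1 was below 0 in WT. The cathepsins A, B, H and L, legumain, Tfeb, Ulk1, Map1lc3a and Gabarapl1 fell in both, and stayed below 0 with that scaling. All 36 genes passed the filter on low values and were tested. In ARNoC prostates 14 rose, 10 fell and 12 were not called, so 66.7% were called against 36.2% of all 15261 genes tested, of which 19.4% rose and 16.8% fell. In WT prostates 11 rose, 10 fell and 15 were not called, so 58.3% were called against 39.2% of all genes, of which 20.4% rose and 18.8% fell. The 36 genes were chosen with earlier results of these data known, so these shares are no test of the set. A call means a Benjamini-Hochberg adjusted p below 0.05, taken over all genes tested, from the quasi-likelihood test of edgeR. The median log2 change of the 36 genes was 0.0459 in ARNoC and -0.000384 in WT, beside medians of -0.00998 and -0.0229 over all genes.

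Large changes were few. A called change of at least 1.5-fold was seen in 3 of the 36 genes in ARNoC (Glb1, Man2b1 and Gla), against 17.4% of all genes, and in 5 in WT (Glb1, Lgmn, Ctsb, Lipa and Tfeb), against 20.7%. The testosterone and vehicle libraries did not overlap for 10 genes that were higher and 5 that were lower with testosterone in ARNoC, where 12.4% and 10.7% of all genes stood apart in that way. In WT they did not overlap for 8 genes that were higher and 9 that were lower, against 15.2% and 11.9%. In both genotypes 10 genes rose and 9 fell, none was called in opposite directions, and 10 were called in neither. These directions are relative to the bulk of genes: scaling to total count shifted the median log2 change of all genes by -0.346 in ARNoC and -0.423 in WT. On that scale 4 of the 36 genes rose and 21 fell in ARNoC, beside 1178 and 7548 of all 15261 genes. In WT 1 rose and 26 fell, beside 1099 and 9120 of all genes. The median log2 change of the 36 genes was then -0.305 in ARNoC and -0.427 in WT, beside -0.356 and -0.445 over all genes. In bulk tissue, fewer cells of a type and less RNA per cell cannot be told apart.

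**Figure D1:**
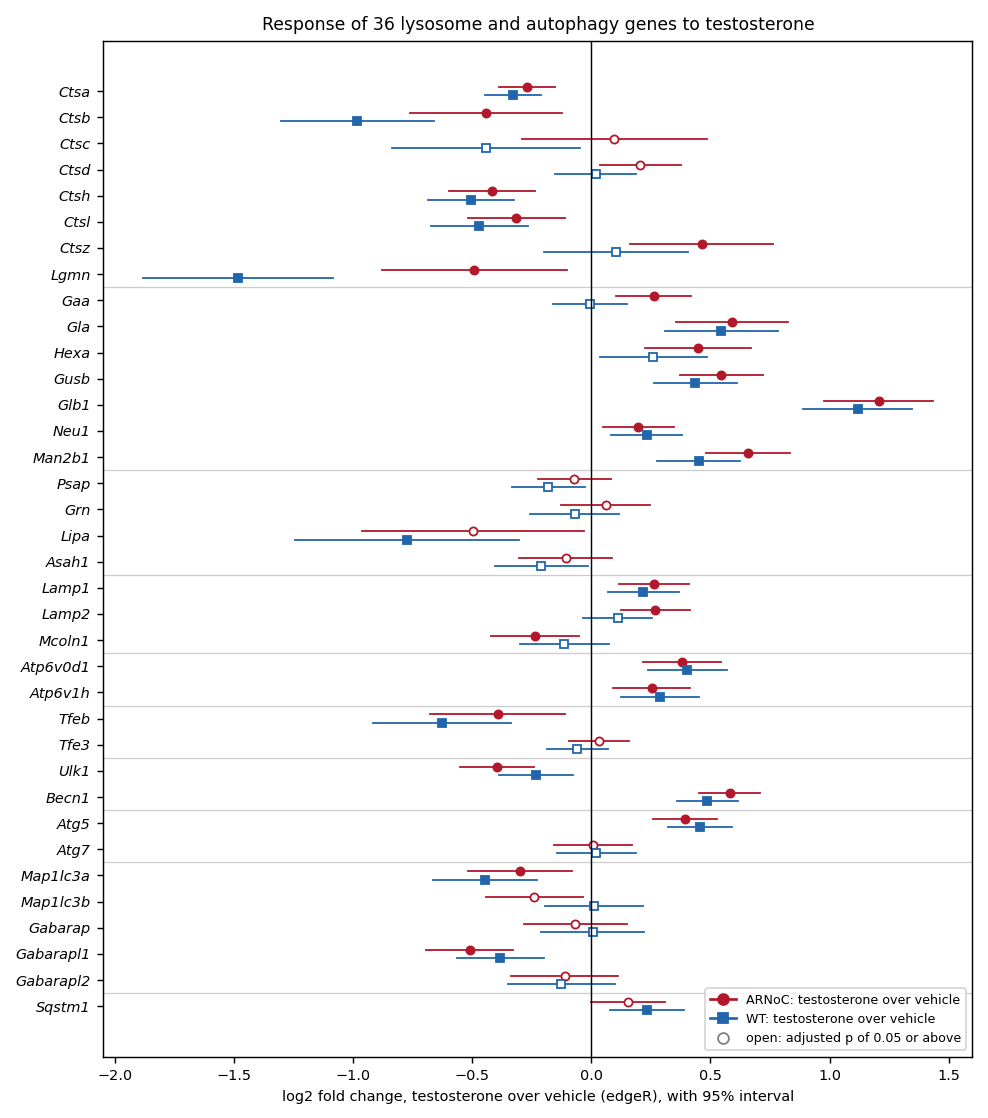
Log2 fold change (edgeR, testosterone over vehicle, x axis) of the 36 genes with 95% intervals, ARNoC as red circles and WT as blue squares, open where the adjusted p was 0.05 or above, grouped by role. Glycosidases and pump subunits lie to the right of 0, except Gaa in WT at -0.01, and cathepsins and Lgmn mostly to the left in both genotypes; with total-count scaling Gaa, Neu1 and Atp6v1h in ARNoC and Neu1, Hexa, Gaa and both pump subunits in WT have negative values.

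Of the 8 lysosomal proteases, 5 fell in both genotypes: Ctsa, Ctsb, Ctsh, Ctsl and Lgmn. Lgmn (legumain; chr12:102394084-102439813, minus strand) is an asparaginyl endopeptidase that also processes cathepsins. It had 612, 605, 894, 475 and 616 normalized counts in ARNoC with testosterone, against 986, 975, 836, 1190.5 and 537 in ARNoC with vehicle. In WT it had 422, 415, 396, 412 and 483 with testosterone, against 1235, 899, 1116, 1057 and 1697 with vehicle. The WT groups did not overlap. In ARNoC the vehicle library with 537 lay among the testosterone libraries, and testosterone library 3 (894) was above vehicle library 3 (836). Lgmn fell 1.41-fold (log2 -0.49 ± 0.19 SE, edgeR adjusted p 0.0447) in ARNoC and 2.80-fold (log2 -1.48 ± 0.19 SE, edgeR adjusted p 4.20e-06) in WT. The call in ARNoC was lost without any one of 8 of its 10 libraries (all but testosterone library 3 and vehicle library 5), with an edgeR adjusted p of 0.0543 to 0.133, and also with the ARNoC groups fitted alone (0.0635) or with limma-trend (0.0525).

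Ctsb (cathepsin B; chr14:63122462-63145923, plus strand) is a cysteine protease abundant in macrophages and in many epithelia. It had 3873, 3869, 4929, 3810.4 and 3924 normalized counts in ARNoC with testosterone, against 6065, 5641, 5146, 6888 and 4164 in ARNoC with vehicle. WT libraries held 3197, 3502, 3111, 3415 and 4004 with testosterone, against 7306, 4806, 5899.5, 6340.5 and 9961 with vehicle. Every WT vehicle library was above every WT testosterone library, and in ARNoC testosterone library 3 lay among the vehicle libraries. Ctsb fell 1.36-fold (log2 -0.44 ± 0.15 SE, edgeR adjusted p 0.0283) in ARNoC and 1.98-fold (log2 -0.98 ± 0.15 SE, edgeR adjusted p 3.98e-05) in WT. The ARNoC call was lost without vehicle library 1 or 4 or testosterone library 4 (edgeR adjusted p 0.0507 to 0.0858). About 12.8% of its exon bases are shared with Fdft1 on the opposite strand, and no source used here says whether counting used strand.

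The other cathepsins changed less. Ctsa, the protective protein that also stabilises beta-galactosidase and neuraminidase, averaged 1323 ± 136 in ARNoC with testosterone and 1602 ± 46.0 with vehicle, and 1264 ± 33.5 in WT with testosterone and 1597 ± 78.3 with vehicle (normalized counts, SD, n = 5 each). It fell 1.21-fold (log2 -0.27 ± 0.06 SE, edgeR adjusted p 8.80e-04) in ARNoC and 1.26-fold (log2 -0.33 ± 0.06 SE, edgeR adjusted p 1.22e-04) in WT. Ctsh, an aminopeptidase, fell 1.34-fold (log2 -0.42 ± 0.09 SE, edgeR adjusted p 7.58e-04) in ARNoC and 1.42-fold (log2 -0.51 ± 0.09 SE, edgeR adjusted p 1.13e-04) in WT. Ctsl, an endopeptidase, fell 1.24-fold (log2 -0.32 ± 0.10 SE, edgeR adjusted p 0.0154) in ARNoC and 1.39-fold (log2 -0.47 ± 0.10 SE, edgeR adjusted p 7.17e-04) in WT, and 26.8% of its exon bases are shared with an antisense gene, so its counts are uncertain. Ctsa in turn shares 10.5% of its exon bases with Pltp on the opposite strand. Ctsz, a carboxypeptidase, ran against the others and rose 1.38-fold (log2 0.46 ± 0.14 SE, edgeR adjusted p 0.0161) in ARNoC, a call lost without testosterone library 2, 3 or 4 (edgeR adjusted p 0.054 to 0.0917) and with total-count scaling (0.11, adjusted p 0.554), while in WT its change was not called (log2 0.10 ± 0.15 SE, edgeR adjusted p 0.602).

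The remaining 2 proteases were called in neither genotype. Ctsc, which activates granule proteases of immune cells, had a log2 change of 0.10 in ARNoC and -0.44 in WT, with edgeR adjusted p of 0.718 and 0.0697. Leaving out testosterone library 5, or vehicle library 2 or 3, made its fall in WT a call (edgeR adjusted p 0.0186 to 0.0446), as did DESeq2 (0.0464) and total-count scaling (9.19e-04). Ctsd (cathepsin D), the main aspartic protease of the lysosome, had 12646 to 16785 normalized counts in ARNoC with testosterone and 12475 to 13531 with vehicle, and 11372 to 14076 in WT with testosterone and 10508 to 13582 with vehicle. Its log2 changes were 0.21 in ARNoC (edgeR adjusted p 0.0537, DESeq2 adjusted p 0.0329) and 0.02 in WT (0.882). The predicted gene Gm49369 covers 34.4% of the exon bases of Ctsd on the same strand, so its counts are uncertain.

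**Figure D2:**
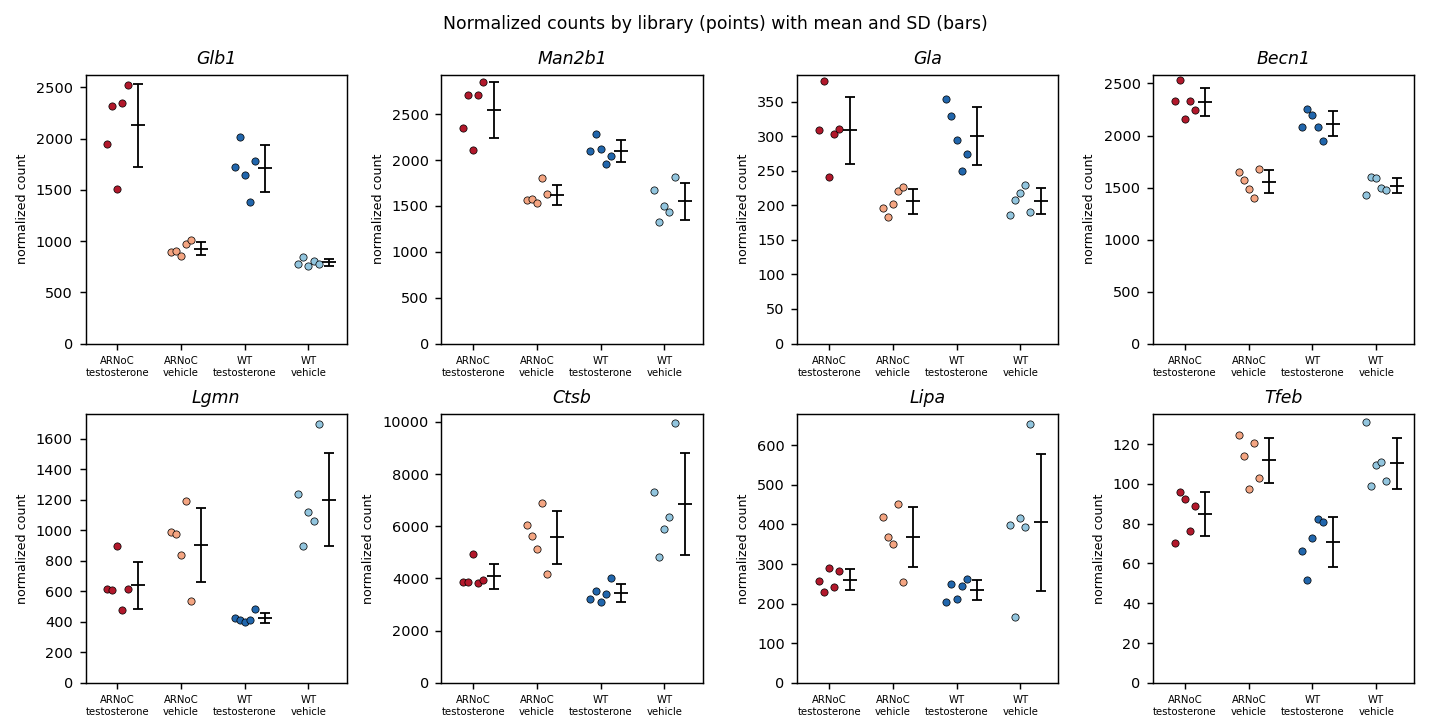
Normalized counts (y axis, from 0) of 8 of the genes in each library, with mean and SD of 5 libraries; groups run from ARNoC with testosterone at the left to WT with vehicle at the right. Glb1, Man2b1, Gla and Becn1 are higher and Lgmn, Ctsb, Lipa and Tfeb lower with testosterone on this scale.

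Macrophage and myeloid markers mostly fell with testosterone, as did 5 of the 8 lysosomal proteases. Ctsz instead rose in ARNoC, and Ctsc and Ctsd were called in neither genotype. Of 18 such markers, 14 fell with testosterone in ARNoC (median log2 change over the 18 of -1.17) and all 18 fell in WT (median -2.07). Their summed level was 3225 to 6507 normalized counts in ARNoC with testosterone, 3683 to 15119 in ARNoC with vehicle, 2029.6 to 4417 in WT with testosterone and 4107 to 22633 in WT with vehicle. None of the 18 markers was at 0 throughout a group. Within the vehicle groups, libraries extreme in these markers were also the extreme ones for some of the 36 genes. How often the same libraries were extreme over all genes was not counted. The counts that follow therefore cannot be read as particular to lysosomal genes. The WT vehicle library with the lowest sum (library 2) was also the lowest of its group for 17 of the 36 genes, and the one with the highest sum (library 5) was the highest for 14. Both held for 11 genes: Ctsa, Ctsb, Ctsc, Ctsz, Lgmn, Hexa, Man2b1, Psap, Grn, Lipa and Atg7. Of these, Ctsa, Ctsb and Lgmn fell with testosterone in both genotypes and Lipa fell in WT. Man2b1 rose in both genotypes, Ctsz and Hexa rose in ARNoC, and the others were called in neither.

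In ARNoC with vehicle the counts were 7 genes lowest in library 5 and 13 highest in library 4, and both held for Ctsb, Ctsc, Ctsh, Ctsz, Lgmn and Lipa. With testosterone the library lowest in myeloid markers was the lowest for 1 gene in ARNoC and 2 in WT, and the highest one was the highest for 5 and 6. In WT vehicle library 2, Lgmn stood at 899 normalized counts and the myeloid sum at 4107. The WT testosterone libraries had 396 to 483 of Lgmn and myeloid sums of 2029.6 to 4417. In ARNoC vehicle library 5, with a myeloid sum of 3683, Lgmn stood at 537, within the 475 to 894 of the ARNoC testosterone libraries. Without both of these vehicle libraries, Lgmn had a log2 change of -0.63 in ARNoC and -1.57 in WT, and Ctsb one of -0.53 and -1.08. The summed fibroblast markers were 5270.0 in that ARNoC library, against at least 16721 in the other 4 of its group, and 7003 in that WT library, against at least 22722. Of 8 fibroblast markers, 1 fell with testosterone in ARNoC and 5 in WT. Of 7 lymphocyte markers tested, 5 fell in each genotype (median log2 change -1.8 in ARNoC and -1.35 in WT). Of 6 endothelial markers none was called in ARNoC and 3 fell in WT, and of 6 smooth muscle markers 4 rose in ARNoC and 1 in WT. The part of myeloid, lymphoid or stromal cells in these changes was not tested.

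**Figure D3:**
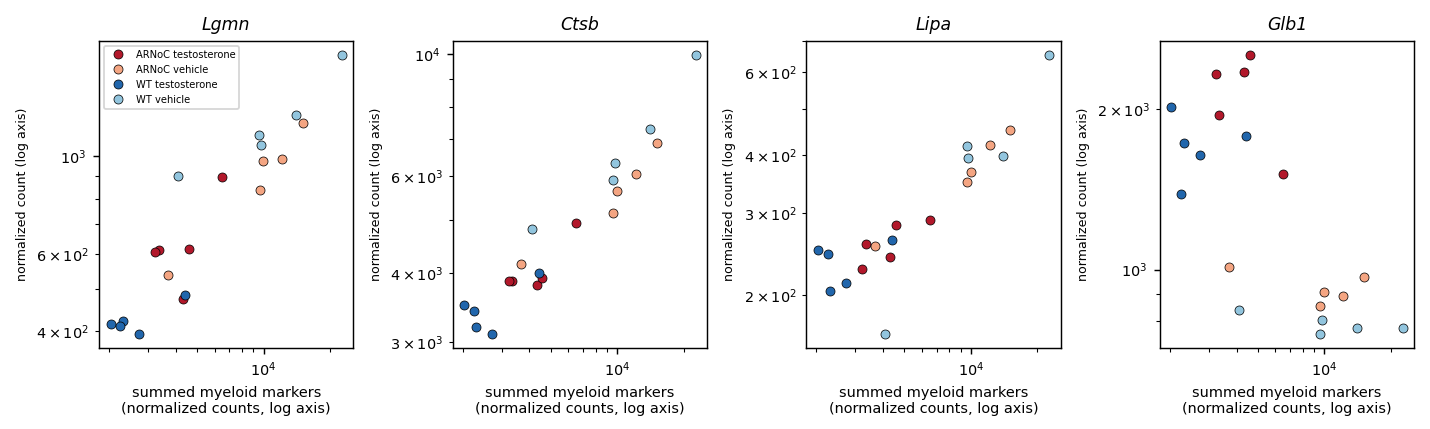
Normalized count of Lgmn, Ctsb, Lipa and Glb1 (y axis, log) against the summed normalized count of 18 myeloid markers (x axis, log) in the 20 libraries, coloured by group. Lgmn, Ctsb and Lipa are higher in libraries with more myeloid marker counts, within vehicle groups too, while the Glb1 values of all testosterone libraries lie above those of all vehicle libraries; the marker sums of the treatments share only a small range.

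All 7 glycosidases rose in ARNoC and 5 of the 7 rose in WT, although with total-count scaling the values of Gaa and Neu1 in ARNoC, and of Gaa, Hexa and Neu1 in WT, were below 0. Glb1 (beta-galactosidase; chr9:114401076-114474898, plus strand) removes galactose from gangliosides and keratan sulfate. It had 1944, 2321, 1509.5, 2349.7 and 2527 normalized counts in ARNoC with testosterone, against 892, 906, 856, 969.7 and 1010.3 in ARNoC with vehicle. The WT values were 1728, 2020.2, 1642, 1385 and 1779 with testosterone, against 777, 842, 759, 806 and 777 with vehicle. The groups did not overlap in either genotype. Glb1 rose 2.31-fold (log2 1.21 ± 0.11 SE, edgeR adjusted p 4.54e-08) in ARNoC and 2.17-fold (log2 1.12 ± 0.11 SE, edgeR adjusted p 1.28e-07) in WT, and with total-count scaling its log2 changes were still 0.86 and 0.69.

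Man2b1 (lysosomal alpha-mannosidase; chr8:85083270-85098282, plus strand) trims mannose from glycoproteins. It had 2354, 2710.0, 2107, 2712 and 2855 normalized counts in ARNoC with testosterone, against 1562, 1578, 1533, 1809 and 1633 in ARNoC with vehicle. In WT it had 2100.3, 2283, 2123, 1957 and 2048 with testosterone, against 1672, 1321, 1498, 1433 and 1818 with vehicle. Again the groups stood apart in both genotypes. Man2b1 rose 1.58-fold (log2 0.66 ± 0.08 SE, edgeR adjusted p 4.09e-06) in ARNoC and 1.37-fold (log2 0.45 ± 0.08 SE, edgeR adjusted p 2.76e-04) in WT, and its values with total-count scaling were 0.31 in ARNoC and 0.02 in WT, where the call was lost (edgeR adjusted p 0.828).

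Gla (alpha-galactosidase A; chrX:134588149-134601125, minus strand) is the enzyme lacking in human Fabry disease. It had 308, 379, 241, 303 and 309.8 normalized counts in ARNoC with testosterone, against 196, 183, 202, 221 and 227 in ARNoC with vehicle. WT prostates gave 354, 329, 295, 249 and 274 with testosterone, against 186, 207, 217, 229.8 and 191 with vehicle. No vehicle library reached a testosterone library of its genotype. Gla rose 1.51-fold (log2 0.59 ± 0.11 SE, edgeR adjusted p 3.45e-04) in ARNoC and 1.46-fold (log2 0.55 ± 0.11 SE, edgeR adjusted p 7.41e-04) in WT, and with total-count scaling its log2 changes were 0.24 in ARNoC and 0.12 in WT, where the call was lost (edgeR adjusted p 0.304).

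Gusb (beta-glucuronidase) averaged 971 ± 137 normalized counts in ARNoC with testosterone and 669 ± 44.5 with vehicle, and 945 ± 90.8 in WT with testosterone and 702 ± 34.5 with vehicle (SD, n = 5 each). It rose 1.46-fold (log2 0.55 ± 0.08 SE, edgeR adjusted p 3.48e-05) in ARNoC and 1.35-fold (log2 0.44 ± 0.08 SE, edgeR adjusted p 3.58e-04) in WT, and both calls were lost with total-count scaling (0.20, adjusted p 0.0664, in ARNoC and 0.01, adjusted p 0.921, in WT). Hexa, the alpha subunit of beta-hexosaminidase, rose 1.36-fold (log2 0.45 ± 0.11 SE, edgeR adjusted p 0.00254) in ARNoC, while in WT its change was not called (log2 0.26 ± 0.11 SE, edgeR adjusted p 0.0604) unless vehicle library 5 was left out (edgeR adjusted p 0.0147). With total-count scaling its ARNoC call was lost (0.10, edgeR adjusted p 0.427). Tmem202 covers 12.8% of its exon bases on the opposite strand, at no more than 36.1 normalized counts in any library. Gaa, which digests glycogen, rose 1.20-fold (log2 0.26 ± 0.07 SE, edgeR adjusted p 0.00976) in ARNoC, a call lost without testosterone library 2, 4 or 5 (edgeR adjusted p 0.0505 to 0.0947), and had a log2 change of -0.01 in WT. Neu1, the lysosomal sialidase, rose 1.15-fold (log2 0.20 ± 0.07 SE, edgeR adjusted p 0.0367) in ARNoC and 1.17-fold (log2 0.23 ± 0.07 SE, edgeR adjusted p 0.0147) in WT. The Neu1 call was lost in ARNoC without any one of 7 libraries (edgeR adjusted p 0.0676 to 0.227; vehicle 1, 2 and 4, testosterone 1, 2, 4 and 5) and in WT without testosterone library 1 or 2 (0.0633 to 0.0958).

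Among the 4 lipid enzymes and their helpers, only Lipa in WT was called, and it was lower with testosterone. Lipa (lysosomal acid lipase; chr19:34492318-34527474, minus strand) splits the cholesteryl esters and triglycerides that reach the lysosome. It had 258, 228, 290.4, 241 and 282 normalized counts in ARNoC with testosterone, against 419.8, 367, 349.6, 453 and 255 in ARNoC with vehicle. In WT its counts were 205, 249.9, 212, 246 and 263 with testosterone, against 398, 166, 417, 394 and 655 with vehicle. WT vehicle library 2, the one low in myeloid markers, was below every WT testosterone library, and the other 4 vehicle libraries were above them all. Lipa fell 1.71-fold (log2 -0.77 ± 0.23 SE, edgeR adjusted p 0.0101) in WT, a call lost with limma-voom (adjusted p 0.0549). In ARNoC the change missed the threshold (log2 -0.50 ± 0.22 SE, edgeR adjusted p 0.0886), and it was called without vehicle library 5 (edgeR adjusted p 0.0442).

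Psap, which is cut into the saposins that help degrade sphingolipids, averaged 14759 ± 1486 normalized counts in ARNoC with testosterone and 15563 ± 613 with vehicle, and 13894 ± 773 in WT with testosterone and 15834 ± 1106 with vehicle (SD, n = 5 each). Its log2 changes of -0.07 and -0.18 were not called (edgeR adjusted p 0.478 and 0.0564), although the fall in WT was a call once testosterone library 1, 2 or 5, or vehicle library 2, was left out (0.0195 to 0.0498). DESeq2 (adjusted p 0.0165), limma-voom (0.0426) and a filter of 50 (edgeR, 0.0295) also called it, and total-count scaling called a fall in both genotypes (-0.42 in ARNoC and -0.61 in WT). Grn (progranulin), a secreted and lysosomal glycoprotein, had log2 changes of 0.06 in ARNoC and -0.07 in WT. Asah1 (acid ceramidase) had -0.11 and -0.21, the WT value being called without vehicle library 2 or testosterone library 5 (edgeR adjusted p 0.0217 to 0.0297).

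In the lysosomal membrane, Lamp1 rose in both genotypes and Lamp2 in ARNoC, but with total-count scaling the values of both were below 0 in both genotypes. These are the 2 abundant glycoproteins that line the membrane. Lamp1 averaged 9956 ± 1018 normalized counts in ARNoC with testosterone and 8327 ± 237 with vehicle, and 9245 ± 788 in WT with testosterone and 7989 ± 256 with vehicle (SD, n = 5 each). It rose 1.20-fold (log2 0.26 ± 0.07 SE, edgeR adjusted p 0.00625) in ARNoC and 1.16-fold (log2 0.22 ± 0.07 SE, edgeR adjusted p 0.0188) in WT, and these calls were lost without ARNoC testosterone library 2 or 5 (edgeR adjusted p 0.0566 to 0.06) and without WT testosterone library 1, 2 or 5 (0.0788 to 0.162). Lamp2 rose 1.20-fold (log2 0.27 ± 0.07 SE, edgeR adjusted p 0.00458) in ARNoC and was not called in WT (log2 0.11 ± 0.07 SE, edgeR adjusted p 0.218). Mcoln1, the calcium channel of the lysosomal membrane, fell 1.18-fold (log2 -0.24 ± 0.09 SE, edgeR adjusted p 0.0414) in ARNoC, a call lost without vehicle library 1, 2 or 3 or testosterone library 3 (edgeR adjusted p 0.0507 to 0.126), and had a log2 change of -0.11 in WT.

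Both subunits of the proton pump rose in both genotypes, except that with total-count scaling Atp6v1h in both genotypes and Atp6v0d1 in WT were below 0. Atp6v0d1, which links the membrane ring of the pump to its stalk, averaged 2419 ± 289 normalized counts in ARNoC with testosterone and 1864 ± 169.7 with vehicle, and 2345 ± 197 in WT with testosterone and 1782 ± 46.7 with vehicle (SD, n = 5 each). It rose 1.30-fold (log2 0.38 ± 0.08 SE, edgeR adjusted p 7.29e-04) in ARNoC and 1.32-fold (log2 0.40 ± 0.08 SE, edgeR adjusted p 4.10e-04) in WT, with no overlap in either, and with total-count scaling its values were 0.03 and -0.024, neither called. Atp6v1h, a regulatory subunit of the cytosolic part, rose 1.19-fold (log2 0.25 ± 0.08 SE, edgeR adjusted p 0.0153) in ARNoC and 1.22-fold (log2 0.29 ± 0.08 SE, edgeR adjusted p 0.00654) in WT. The ARNoC call of Atp6v1h was lost without testosterone library 2, 3 or 5 (edgeR adjusted p 0.056 to 0.077).

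Of the pair of transcription factors, Tfeb fell in both genotypes and Tfe3 was called in neither. Tfeb (chr17:47737030-47792419, plus strand) had 70.2, 96.0, 92.5, 76.2 and 89.0 normalized counts in ARNoC with testosterone, against 124, 114, 97.3, 120.3 and 103 in ARNoC with vehicle. Its WT values were 66.2, 51.9, 72.9, 82.2 and 80.7 with testosterone, against 131, 98.8, 109, 111 and 101 with vehicle. The testosterone libraries were below all vehicle libraries of their genotype. Tfeb fell 1.31-fold (log2 -0.39 ± 0.14 SE, edgeR adjusted p 0.0284) in ARNoC and 1.55-fold (log2 -0.63 ± 0.14 SE, edgeR adjusted p 0.00123) in WT, and the ARNoC call was lost without vehicle library 1 or 4 (edgeR adjusted p 0.0594 to 0.0729). Tfe3 (chrX:7762560-7775202, plus strand) had 519.8, 592, 523, 512 and 534 normalized counts in ARNoC with testosterone, against 561, 491, 508, 537 and 536 in ARNoC with vehicle. In WT it reached 520.5, 488, 481, 538 and 537 with testosterone, against 522, 562, 518, 505 and 584 with vehicle. All 4 groups overlapped, and the log2 changes were 0.03 (95% interval -0.09 to 0.16) in ARNoC and -0.06 (-0.19 to 0.07) in WT, with edgeR adjusted p of 0.711 and 0.463. Both proteins are controlled largely by phosphorylation and movement to the nucleus, which counts of mRNA do not show.

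Among the 10 autophagy genes the initiation pair moved in opposite directions. Becn1 (beclin 1; chr11:101285952-101302286, minus strand), a subunit of the lipid kinase complex that starts the autophagosome, had 2161 to 2529.7 normalized counts in ARNoC with testosterone and 1402 to 1678 with vehicle, and 1948 to 2255 in WT with testosterone and 1432 to 1598 with vehicle. It rose in ARNoC (log2 0.58 ± 0.06 SE, edgeR adjusted p 3.56e-07) and in WT (log2 0.49 ± 0.06 SE, edgeR adjusted p 3.27e-06), with no overlap in either and with total-count scaling its log2 values were 0.23 in ARNoC and 0.06 in WT, where the call was lost (edgeR adjusted p 0.302). Cntd1 on the opposite strand covers 43.9% of the exon bases of Becn1, so its counts are uncertain, though Cntd1 itself did not exceed 27.8 normalized counts in any library. Ulk1, the kinase that opens autophagy, averaged 770.0 ± 74.4 in ARNoC with testosterone and 1019 ± 78.5 with vehicle, and 814 ± 64.5 in WT with testosterone and 961 ± 73.8 with vehicle (normalized counts, SD, n = 5 each). It fell 1.32-fold (log2 -0.40 ± 0.07 SE, edgeR adjusted p 3.00e-04) in ARNoC and 1.17-fold (log2 -0.23 ± 0.07 SE, edgeR adjusted p 0.0184) in WT, where the call was lost without vehicle library 4 (edgeR adjusted p 0.0583).

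Atg5 and Atg7 both serve the attachment of Atg8 proteins to membrane lipid, and one of them changed. Atg5, part of the complex that completes the attachment, rose 1.31-fold (log2 0.39 ± 0.06 SE, edgeR adjusted p 6.66e-05) in ARNoC and 1.37-fold (log2 0.46 ± 0.06 SE, edgeR adjusted p 1.17e-05) in WT, with no overlap in either, but with total-count scaling both calls were lost (0.05, adjusted p 0.425, in ARNoC and 0.03, adjusted p 0.615, in WT). Atg7, the activating enzyme of that reaction, was called in neither, with log2 changes of 0.01 (95% interval -0.16 to 0.17) and 0.02 (-0.15 to 0.19).

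In the Atg8 family itself, Map1lc3a and Gabarapl1 fell in both genotypes and Map1lc3b, Gabarap and Gabarapl2 were called in neither. Gabarapl1 averaged 1789.6 ± 288 normalized counts in ARNoC with testosterone and 2559.8 ± 129.7 with vehicle, and 1673 ± 71.3 in WT with testosterone and 2192 ± 194 with vehicle (SD, n = 5 each). It fell 1.43-fold (log2 -0.51 ± 0.09 SE, edgeR adjusted p 1.10e-04) in ARNoC and 1.30-fold (log2 -0.38 ± 0.09 SE, edgeR adjusted p 0.0017) in WT, with no overlap, and 28.3% of its exon bases are shared with 1700101I11Rik on the opposite strand. Map1lc3a fell 1.23-fold (log2 -0.30 ± 0.10 SE, edgeR adjusted p 0.0293) in ARNoC and 1.36-fold (log2 -0.45 ± 0.11 SE, edgeR adjusted p 0.00213) in WT. The ARNoC call was lost without vehicle library 1 or 3 (edgeR adjusted p 0.0514 to 0.0798) or without both vehicle libraries low in fibroblast markers (0.0514). Gabarap had log2 changes of -0.07 and 0.01, and Gabarapl2 of -0.11 and -0.13, in ARNoC and WT. Gabarapl2 shares 12.2% of its stretches of 50 bases with 4 other genes, so its counts are uncertain.

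Map1lc3b (LC3B; chr8:121590361-121598760, plus strand) is the Atg8 protein most used as a marker of autophagosomes. It had 3180.2, 3073, 2110.3, 2633 and 3371 normalized counts in ARNoC with testosterone, against 3674, 3193, 3512, 3035 and 3597 in ARNoC with vehicle. WT libraries had 2906, 2704, 2697, 2435 and 2848 with testosterone, against 2805, 2906, 2746, 2684 and 2414 with vehicle. The treatments overlapped in both genotypes. Its change in ARNoC was not called (log2 -0.24 ± 0.10 SE, edgeR adjusted p 0.0642), but it was without vehicle library 4 or testosterone library 1, 2 or 5 (edgeR adjusted p 0.0109 to 0.0423). A fall in ARNoC was also called with DESeq2 (adjusted p 0.0427), limma-trend (0.0480), no filter (edgeR, 0.0394), a filter of 50 (edgeR, 0.0443) and total-count scaling (-0.59). In WT its change was close to 0 (log2 0.01 ± 0.10 SE, edgeR adjusted p 0.941), but with total-count scaling it was called lower (-0.41). Other genes share 6.01% of its stretches of 50 bases, which makes its counts uncertain too.

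Sqstm1 (p62; chr11:50199366-50210827, minus strand) is the receptor that carries ubiquitinated cargo to Atg8 proteins. It had 4827, 5563, 4556, 4153 and 5128 normalized counts in ARNoC with testosterone, against 4384, 4185, 4799, 4208 and 4288 in ARNoC with vehicle. In WT it stood at 4318, 5023, 4011, 4897 and 4397 with testosterone, against 4041, 3816, 3842, 3871 and 3816 with vehicle. All WT testosterone libraries but one were above the whole vehicle group. Sqstm1 rose 1.17-fold (log2 0.23 ± 0.07 SE, edgeR adjusted p 0.0178) in WT, with the opposite sign under total-count scaling (-0.19), and was not called in ARNoC (log2 0.15 ± 0.07 SE, edgeR adjusted p 0.114). The WT call was lost without testosterone library 1, 2, 4 or 5 (edgeR adjusted p 0.052 to 0.136). About 17.3% of its exon bases are shared with Mrnip on the opposite strand.

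A further 127 genes of the same pathways were counted, and 125 of them passed the filter. This list too was chosen with earlier results of these data known. With testosterone 42 rose and 21 fell in ARNoC (50.4% called, median log2 change 0.0931), and 45 rose and 24 fell in WT (55.2% called, median 0.0832), beside the 36.2% and 39.2% of all genes given above. With total-count scaling these counts became 11 and 73 in ARNoC and 10 and 87 in WT. Over all 15261 genes that scaling gave 1178 and 7548 in ARNoC and 1099 and 9120 in WT. The other pump subunits moved upwards relative to other genes: of 15 tested, 7 rose in ARNoC and 6 in WT and none fell, whereas with total-count scaling 3 rose and 6 fell in ARNoC and 3 rose and 12 fell in WT. Of 6 other lysosomal proteases tested, none rose with either scaling, and 1 fell in ARNoC (Ctss) and 4 in WT (Ctsk, Ctso, Ctss and Scpep1), with 5 and 6 falling under total-count scaling. The 24 other hydrolases moved both ways, with 10 rising and 7 falling in ARNoC and 7 rising and 9 falling in WT, and with 5 and 13 in ARNoC and 2 and 18 in WT under total-count scaling. Of 26 other core autophagy genes, 7 rose and 4 fell in ARNoC and 10 rose and 4 fell in WT, but with total-count scaling none rose in either genotype, 16 fell in ARNoC and 17 fell in WT. For 16 other receptors and fusion factors the counts were 6 and 5 in ARNoC and 7 and 4 in WT, and with total-count scaling 0 and 11 in ARNoC and 1 and 10 in WT. For 23 other membrane and sorting genes they were 9 and 3 in ARNoC and 10 and 2 in WT, and with total-count scaling 3 and 11 in ARNoC and 3 and 14 in WT. For 15 genes of nutrient sensing at the lysosome they were 3 and 1 in ARNoC and 5 and 1 in WT, and with total-count scaling 0 and 11 in ARNoC and 1 and 10 in WT. In every one of these classes total-count scaling moved the balance towards falls. It shifted the median log2 change of all genes by -0.346 in ARNoC and -0.423 in WT, so this move cannot be read as particular to these classes.

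The genes with the smallest adjusted p in each direction among these were as follows. Npc2, which carries cholesterol inside the lysosome, had 7926, 9936, 7121, 8025 and 7612 normalized counts in ARNoC with testosterone, against 3405, 3580.0, 3692, 2899.8 and 3667 in ARNoC with vehicle, and rose 2.36-fold (log2 1.24 ± 0.08 SE, edgeR adjusted p 9.06e-10). In WT it rose 1.98-fold (log2 0.98 ± 0.08 SE, edgeR adjusted p 2.25e-08). Galns, a sulfatase of keratan sulfate, rose 1.96-fold (log2 0.97 ± 0.10 SE, edgeR adjusted p 2.29e-07) in ARNoC and 1.62-fold (log2 0.70 ± 0.10 SE, edgeR adjusted p 1.43e-05) in WT. Arsb, a sulfatase of dermatan sulfate, rose 1.65-fold (log2 0.73 ± 0.08 SE, edgeR adjusted p 3.60e-07) in ARNoC and 1.79-fold (log2 0.84 ± 0.08 SE, edgeR adjusted p 5.51e-08) in WT. Atp6v0a1, a membrane subunit of the proton pump, rose 1.73-fold (log2 0.79 ± 0.07 SE, edgeR adjusted p 4.19e-08) in ARNoC and 1.60-fold (log2 0.68 ± 0.07 SE, edgeR adjusted p 3.17e-07) in WT. All 4 of these kept their direction with total-count scaling in both genotypes.

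Tax1bp1, a cargo receptor for ubiquitinated protein, had 6842, 7078, 6252, 6403 and 7740.2 normalized counts in ARNoC with testosterone, against 21296, 23679.5, 20818, 18452 and 22902 in ARNoC with vehicle. WT prostates had 8239.6, 9616, 7719, 6348 and 7343 with testosterone, against 22373, 36671, 18327, 23447 and 19770.4 with vehicle. It fell 3.11-fold (log2 -1.64 ± 0.15 SE, edgeR adjusted p 7.76e-08) in ARNoC and 3.06-fold (log2 -1.61 ± 0.15 SE, edgeR adjusted p 8.78e-08) in WT, with no overlap in either. Ids, a sulfatase of heparan and dermatan sulfate, fell 1.39-fold (log2 -0.48 ± 0.06 SE, edgeR adjusted p 7.27e-06) in ARNoC and 1.36-fold (log2 -0.45 ± 0.06 SE, edgeR adjusted p 1.54e-05) in WT. Atg10, which joins Atg12 to Atg5, fell 1.63-fold (log2 -0.70 ± 0.10 SE, edgeR adjusted p 2.57e-05) in ARNoC and 1.55-fold (log2 -0.63 ± 0.11 SE, edgeR adjusted p 8.96e-05) in WT. Ctss (cathepsin S), a protease of antigen-presenting cells, fell 2.30-fold (log2 -1.20 ± 0.22 SE, edgeR adjusted p 2.32e-04) in ARNoC and 3.77-fold (log2 -1.92 ± 0.23 SE, edgeR adjusted p 1.39e-06) in WT, beside the myeloid markers given above.

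The genotypes were then compared within each treatment. With testosterone none of the 36 genes was called between ARNoC and WT, against 1.69% of all genes. An unadjusted edgeR p below 0.05 was seen for 10 of the 36, beside 2237 of all 15261 genes. With vehicle none was called either, against 0.321% of all genes, and 7 had an unadjusted edgeR p below 0.05, beside 1143 of all genes. DESeq2 called 2 of them with testosterone, Gaa and Hexa, both higher in ARNoC (adjusted p 0.0232 and 0.0266), and none with vehicle. Gaa had 2592, 3241, 2942, 2951 and 3299 normalized counts in ARNoC with testosterone, against 2568, 2546, 2314, 2510.2 and 2468 in WT with testosterone, with no overlap (log2 0.28 ± 0.08 SE, edgeR adjusted p 0.0657). Hexa had 2186, 2695, 1850.3, 2332 and 2477 in ARNoC with testosterone, against 1745, 2117, 1642, 1493 and 1802 in WT with testosterone, with overlap (log2 0.39 ± 0.11 SE, edgeR adjusted p 0.0688). With edgeR, Hexa was called without WT testosterone library 2 or ARNoC testosterone library 3 (adjusted p 0.0473 to 0.0485), and Glb1 without ARNoC testosterone library 3 (0.0223). With total-count scaling 6 of the 36 genes were called higher in ARNoC with testosterone (Ctsd, Gaa, Hexa, Glb1, Man2b1 and Becn1). Over all genes that scaling called 336 higher and 101 lower in ARNoC, beside 104 and 154 with TMM scaling. It shifted the median log2 difference of all genes by 0.0832 towards ARNoC.

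Libraries of the genotypes did not overlap for 2 of the 36 genes with testosterone, Ctsz and Gaa, both higher in ARNoC, where 1.51% of all genes stood apart in that direction. With vehicle they did not overlap for 3 genes, Map1lc3b, Sqstm1 and Glb1, all higher in ARNoC, against 0.95% of all genes. Map1lc3b with vehicle had the smallest p of these, with 5 of 5 ARNoC libraries above all WT libraries (log2 0.33 ± 0.10 SE, edgeR adjusted p 0.231; 95% interval 0.13 to 0.54). The log2 difference of Tfeb between ARNoC and WT was 0.26 with testosterone (95% interval -0.03 to 0.55) and 0.02 with vehicle (-0.26 to 0.30). That of Tfe3 was 0.07 (-0.06 to 0.20) and -0.02 (-0.15 to 0.10). All 4 of these intervals include 0.

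Whether the response to testosterone differed between the genotypes was tested as an interaction, the ARNoC response minus the WT response. None of the 36 genes was called, and neither was any of the 15261 genes (0%). An unadjusted edgeR p below 0.05 was seen for 3 of the 36 and for 1306 of the 15261 genes. Lgmn had the largest value of the 36 (log2 0.99 ± 0.27 SE, edgeR adjusted p 0.342; 95% interval 0.44 to 1.55). Its level with testosterone was 640.3 ± 153 normalized counts in ARNoC and 426 ± 33.7 in WT, and with vehicle 905 ± 241 in ARNoC and 1201 ± 303 in WT (SD, n = 5 each). Ctsb had 0.54 (95% interval 0.09 to 0.99, edgeR adjusted p 0.501) and Gaa 0.27 (0.05 to 0.49, 0.501). For Glb1, the gene with the largest rise, the difference between responses was 0.09, with a 95% interval of -0.23 to 0.41. The 18 myeloid markers had a median interaction of 0.871 on the log2 scale, beside 0.0935 for the 36 genes and 0.00576 for all genes, and their part in the values of Lgmn and Ctsb was not tested.

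**Figure D4:**
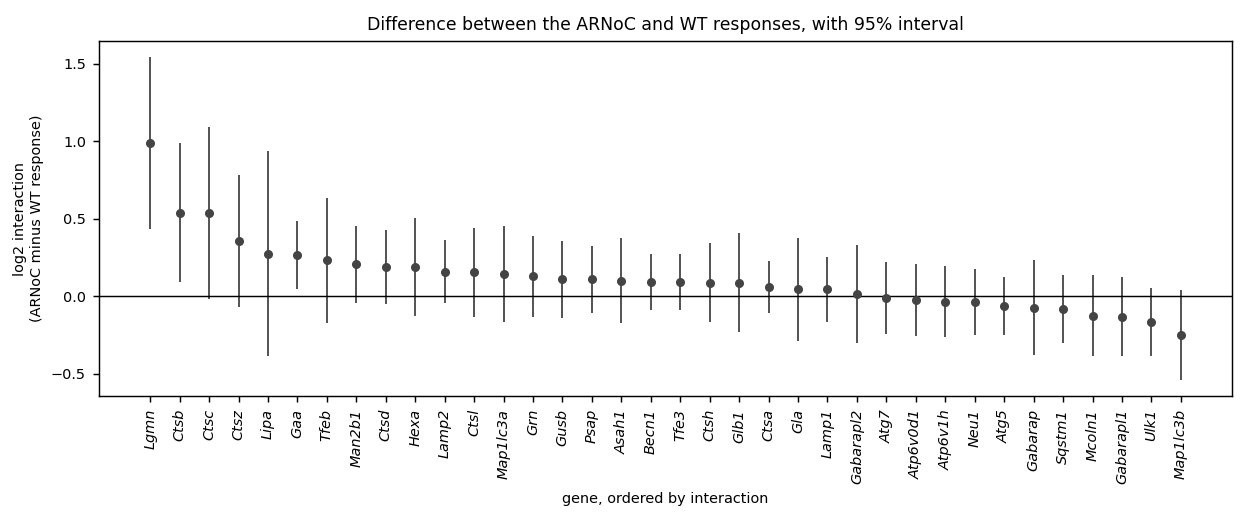
Difference between the responses to testosterone (log2, ARNoC minus WT, y axis) of the 36 genes with 95% intervals, ordered from the highest to the lowest. The intervals of Lgmn, Ctsb and Gaa lie above 0 before adjustment for the number of genes tested, and those of the other 33 genes include 0. Over all 15261 genes, 1306 had an unadjusted edgeR p below 0.05 for this difference.

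Per kilobase of annotated exon, the 36 genes spanned a wide range of levels. The length counts every exon base annotated for a gene, which can exceed that of the transcript expressed, so the order is approximate. The shared exons and sequences given above limit these levels too. Averaged over the 4 groups, Ctsd had 5654 normalized counts per kb, Psap 5471, Lamp1 3319, Gabarap 2578 and Sqstm1 1313. At the other end were Tfe3 with 57.1, Atg7 with 53.6, Lipa with 46.8 and Tfeb with 16.7. Within the Atg8 family the order was Gabarap, Gabarapl1, Map1lc3a with 881, Map1lc3b with 389 and Gabarapl2 with 61.8. Glb1 stood at 708 and 308 per kb in ARNoC with testosterone and with vehicle, and at 569 and 263 in WT with testosterone and with vehicle. The spread between libraries of a group had a median coefficient of variation over the 36 genes of 10.3% in ARNoC with testosterone, 7.89% in ARNoC with vehicle, 8.92% in WT with testosterone and 7.55% in WT with vehicle, and it reached 42.7% for Lipa in WT with vehicle.

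**Figure D5:**
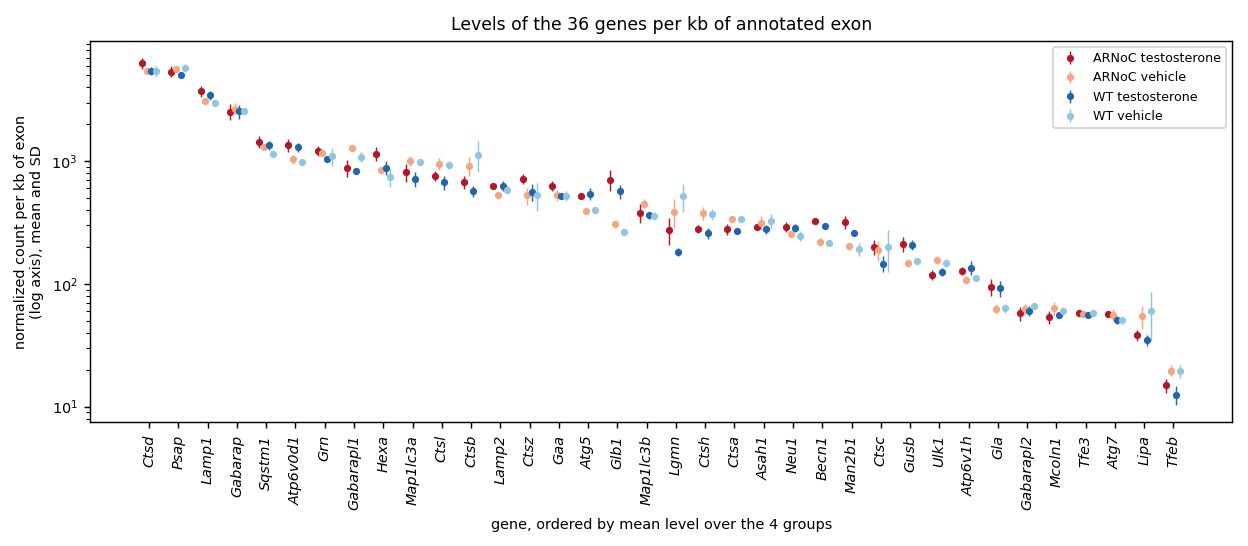
Normalized counts per kilobase of annotated exon (y axis, log) of the 36 genes, mean and SD of 5 libraries in each group, ordered by the mean over the 4 groups. Levels run from Ctsd, with 5654 per kb, to Tfeb, with 16.7 per kb, and the differences between groups are small beside those between genes.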

How the data were processed

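RNA from snap-frozen ventral prostate was sequenced as Illumina TruSeq libraries, 5 for each of 4 groups, per the labels' protocols. The submitters' processing notes list HISAT2, HTSeq, DESeq2, FastQC 0.11.7 and SAMtools 1.5, with build mm10. Whether reads were counted by strand was not stated in any of them. The authors deposited raw read counts per gene for 43472 genes, and these counts were tested here. The authors also deposited a signal table of normalized counts, the raw count over a DESeq2-type size factor, for 23221 genes; the levels in the text come from it. The separate file of size factors was not read, since the deposited normalized counts already carry them and edgeR computed its own scaling from the raw counts; 0 columns of samples outside the series were found.

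A gene was tested where 5 or more of the 20 libraries reached 10 normalized counts, which left 15261 genes. The quasi-likelihood test of edgeR 4.0.16 (R 4.3.3, limma 3.58.1) was fitted to all 4 groups with TMM scaling, one coefficient a group and no covariate, since the labels give no batch. Genes with an adjusted p below 0.05 over all genes were called. Alternatives were median-of-ratios and total-count scaling, DESeq2 1.42.0, limma-trend on log2(normalized count + 1), limma-voom, no filter, a filter of 50 and the compared groups alone. Each library was also left out in turn, as were both vehicle libraries low in fibroblast markers together. On simulated counts of 15261 genes for WT testosterone against vehicle, 53% of 100 genes changed by a log2 of 0.5 and 84% of 100 changed by 1 were called. Only these genes were changed in the simulation, whereas 39.2% of all genes were called in the WT data. The adjustment over all genes is stricter when few genes change, so these shares do not carry over to the comparisons above. The 40 pairs of libraries within groups differed by more than sampling noise, with a chi-square per degree of freedom of 7.97 to 42.7.

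The 36 genes and the other lists were chosen with earlier results of these data known. Every library's value is given for genes called with a change of at least 1.5-fold in a comparison and for Tfeb, Tfe3, Sqstm1 and Map1lc3b; of the other pathway genes, the 3 with the smallest adjusted p in each direction of each response are named. Exon lengths and overlaps come from the annotation of the mm10 build, and promoter windows (250 bases before to 50 after each start) from RefSeq on GRCm38.p6. Figures were drawn with matplotlib 3.10.9 in Python 3.11.15.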

Additional observations from a re-analysis of the deposited data

Results flagged for a closer look

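In 6 of the 144 groups of 5 libraries (36 genes in 4 groups) a single library stood apart from the other 4 by Dixon's criterion. Chance alone marks about 5% of groups, and the number found is no more than that share. In ARNoC with testosterone, library 3 had 4929 normalized counts of Ctsb, against 3810 to 3924 in the others, and it was the library of that group with the most myeloid marker counts. Library 2 of the same group had 1213 of Ctsz, against 967 to 1028, and 592 of Tfe3, against 512 to 534. In WT with testosterone, library 4 had 3359 of Ctsl, against 4454 to 4746. In WT with vehicle, library 2, the lowest in myeloid markers, had 10508 of Ctsd, against 12806 to 13582, and library 1 had 4041 of Sqstm1, against 3816 to 3871. The part of cell content in these values was not tested.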

How the results depend on the processing

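Total-count scaling moved most results, over all 15261 genes too. With it 1178 of all genes rose and 7548 fell with testosterone in ARNoC, and 1099 rose and 9120 fell in WT. Between genotypes with testosterone, 336 of all genes were higher in ARNoC and 101 lower. Of the 36 genes, 4 rose and 21 fell in ARNoC, 1 rose and 26 fell in WT, and 6 were higher in ARNoC than in WT with testosterone. The log2 changes that turned negative in ARNoC were Ctsc -0.26, Ctsd -0.14, Gaa -0.092, Neu1 -0.15, Grn -0.29, Lamp1 -0.086, Lamp2 -0.080, Atp6v1h -0.092, Tfe3 -0.32, Atg7 -0.34 and Sqstm1 -0.20. Those that turned negative in WT were Ctsd -0.41, Ctsz -0.33, Hexa -0.17, Neu1 -0.19, Lamp1 -0.21, Lamp2 -0.32, Atp6v0d1 -0.024, Atp6v1h -0.14, Atg7 -0.41, Map1lc3b -0.41, Gabarap -0.42 and Sqstm1 -0.19. That scaling divides by totals of which the 10 most abundant genes take a larger share with testosterone. The genotype comparison with testosterone had 1 gene called without both vehicle libraries low in fibroblast markers and 2 with DESeq2. The cause was not tested. Apart from total-count scaling, the calls lost in ARNoC were Ctsz, Gaa, Neu1 and Atp6v1h with no filter, Lgmn, Gaa, Neu1 and Mcoln1 with the compared groups alone, Lgmn with limma-trend, and Neu1 and Map1lc3a without both of those vehicle libraries; in WT they were Neu1, Lamp1 and Sqstm1 with no filter and Lipa with limma-voom. Calls were gained in ARNoC for Map1lc3b (no filter, a filter of 50, limma-trend and DESeq2), Ctsd (limma-voom and DESeq2) and Lipa (compared groups alone, and without both of those vehicle libraries), and in WT for Psap (a filter of 50, limma-voom, DESeq2, and without both libraries), Ctsc (DESeq2, and without both libraries) and Asah1 (without both libraries). With 1 library left out, 9 to 14 genes rose and 5 to 11 fell in ARNoC (5 without vehicle library 1, 9 risers without testosterone library 2), and 8 to 12 rose and 9 to 13 fell in WT. Between genotypes with testosterone 0 to 2 were higher in ARNoC, and none was called with vehicle or in the interaction. No sign of a called gene changed when 1 library was left out. No paired analysis was possible because the labels give no replicate numbers. The depth and 5 libraries a group limit what can be seen of small changes, and the overlapping genes named above cannot be separated.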
